A study of Mus musculus with 16 samples.

Results

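Triacsin C alone was compared with SR-3420 alone in mouse brown adipocytes, as a contrast between a block on the esterification of fatty acids and a trigger of their release from stored fat. The comparison used 5 of the 16 samples of the series, chosen by their labels and count columns: 3 treated with triacsin C and 2 treated with SR-3420. The cells were of 1 wild-type line, BAT-LgT, brown preadipocytes made immortal with SV40 large T antigen and differentiated in culture for 7 days. The triacsin C group received the compound (spelled Triascin C in the labels) at 5 µM for 1 h and was then kept for 3 h without SR-3420. The SR-3420 group received vehicle for 1 h and then SR-3420 for 3 h, at 10 µM by the labels and at a higher dose in the study's own text. Triacsin C was thus given 1 h before SR-3420, whether it stayed on for the 3 h is not stated, and effects of agent and of exposure time cannot be told apart. A vehicle group of 2 samples, which received neither compound, gives the reference level. Groups of 3 samples each with 50 µM etomoxir, with etomoxir and SR-3420, and with triacsin C and SR-3420 entered the comparison through the choice of genes tested, the scaling and the shared estimate of the spread. Vehicle replicate 1 and SR-3420 replicate 2 were not analysed here.

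Fat cells store fatty acids as triglyceride in lipid droplets, where perilipin holds the coactivator ABHD5 away from the lipase ATGL. SR-3420 binds ABHD5 and frees it to activate ATGL, so fatty acids leave the droplet without a hormone signal. Triacsin C inhibits long-chain acyl-CoA synthetases, the enzymes that join fatty acids to coenzyme A before they can be esterified or oxidized, so fatty acids remain unesterified while lipolysis is not triggered. Fatty acid levels themselves were not analysed here.

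The deposited values are whole read counts per gene for 20295 genes. Totals per sample were 9452861, 15818919 and 13164376 counts for triacsin C replicates 1, 2 and 3. SR-3420 replicates 1 and 3 held 19156037 and 15667121 counts, and vehicle replicates 2 and 3 held 14032494 and 10097582. Levels below are CPM (counts scaled to the size of the library) after TMM scaling, which can be compared between samples for 1 gene but not between genes, since they are not divided by gene length. Differences are log2 fold changes from the edgeR quasi-likelihood test, fitted on all 16 samples, with their standard errors (SE) and with p-values corrected after Benjamini and Hochberg across 12786 genes (Benjamini-Hochberg). A gene is called at an adjusted p below 0.05. The study describes its replicates as independent experiments, while the labels do not say whether they are separate cultures, so the p-values measure the spread between these samples.

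Triacsin C samples separated from the others along the main axis of variation. In a principal component analysis of the 7 triacsin C, SR-3420 and vehicle samples, the first component held 40.8% of the variance and ran from 33.6 to 37.996 in the triacsin C samples and from -33.7 to -17.2 in the other 4. Along the second component, with 31.0% of the variance, SR-3420 replicate 1 lay at 46.0 and replicate 3 at 1.32, and the triacsin C samples ran from -10.999 to 20.7. Chi-square per degree of freedom over genes, which would be near 1 for counting error alone and grows with depth, was 70.1 between both SR-3420 samples, 39.6 between both vehicle samples and 4.37 to 25.8 between pairs of triacsin C samples. The SR-3420 samples therefore differed from each other more than any triacsin C pair did. Genes with a counted length under 1 kb held 9.26%, 11.02% and 9.68% of the counts with triacsin C, 8.20% and 6.87% with SR-3420, and 8.95% and 7.39% with vehicle.

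The cells carried the markers of fat cells in all 7 samples. Each of 8 adipocyte markers had at least 1057 counts in each of these samples, Cfd being the most abundant, and their summed level was 31708, 41369 and 31573 CPM with triacsin C, 30337 and 18741 CPM with SR-3420 and 34676 and 24824 CPM with vehicle. The brown fat marker Ucp1, the uncoupling protein of heat production, was near the limit of detection, with 9, 38 and 26 counts with triacsin C and 41 and 33 with SR-3420, and Dio2 had no more than 2 counts in any of the 7. Other brown fat markers had more counts than Ucp1 in every sample. Cox8b had 1178, 2601 and 2188 counts with triacsin C and 1013 and 957 with SR-3420. Cidea had 161, 444 and 229 counts with triacsin C and 599 and 371 with SR-3420. Of the 8 adipocyte markers 1 was called higher with triacsin C (Fabp4) and 1 lower (Pparg), and the median log2 fold change was 0.27 (0.64 without SR-3420 replicate 1 and -0.065 without replicate 3), but neither call held without SR-3420 replicate 3 or without any 1 triacsin C sample. For brown adipocyte markers the count was 1 higher (Cox8b) and 2 lower (Prdm16 and Ppargc1a) of 7 tested. Preadipocyte and fibroblast markers had 0 of 9 called, but their summed level moved with the groups, at 2631, 2313 and 2002 CPM with triacsin C, 4062 and 2956 CPM with SR-3420 and 1894 and 1639 CPM with vehicle, with Col1a1 as the most abundant. Without SR-3420 replicate 1, 1 of the 9 was called lower. In bulk RNA fewer cells of a type and less RNA per cell cannot be told apart, and the part of these markers in the results below was not tested.

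Macrophage markers moved as well, from a low base. Their summed level was 26.4, 30.6 and 30.2 CPM with triacsin C, 17.97 and 15.2 CPM with SR-3420 and 15.4 and 12.4 CPM with vehicle. Of 4 tested, Cd68 and Fcgr1 were higher with triacsin C, at log2 fold changes of 1.24 and 4.34, and Cd14 and Csf1r were not called. Without SR-3420 replicate 3 the call for Cd68 was lost (adjusted p = 0.0597). Defining markers of macrophages stood at or near 0, with 2, 3 and 1 counts of Emr1 and 0, 0 and 2 counts of C1qa in the triacsin C samples. Neither the 3 endothelial nor the 3 skeletal muscle markers tested included a called gene, with median log2 fold changes of -0.51 and 0.11. The muscle median was -0.059 without triacsin C replicate 3. That sample held 44 counts of the muscle marker Myog, against 0 and 4 in triacsin C replicates 1 and 2 and 5 and 3 with SR-3420.

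With SR-3420, the oxysterol enzyme gene Ch25h was 19.6 times its level with triacsin C. The transcription factor gene Egr1 was 5.09 times and the cytokine gene Lif 4.90 times its level with triacsin C. Each of them was also far above vehicle with SR-3420. Among genes higher with triacsin C, the fatty acid binding protein gene Pmp2 was 90.0 times its level with SR-3420. The heme oxygenase gene Hmox1, which both compounds raised above vehicle, was 2.76 times its SR-3420 level. The glutathione transferase gene Gstm1 was 2.75 times its SR-3420 level. Genes that span long stretches of the genome, such as those of the kinase Prkce and the transcription factor Zfp423, made up 542 of the 887 genes that triacsin C lowered against vehicle, counting spans of 100 kb or more, against 1520 of the 12786 genes tested. In gene lists, 14 of 26 cholesterol synthesis and 21 of 29 antioxidant genes were higher with triacsin C, and 18 of 30 immediate early, 12 of 26 EGF and Sprouty, 13 of 40 integrated stress and 14 of 32 glycolytic genes were higher with SR-3420, while 1 antioxidant and 1 immediate early gene went the other way. Over all genes tested, 8.65% were called higher and 9.84% lower with triacsin C.

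Of 12786 genes, 1106 were higher with triacsin C than with SR-3420 (8.65%) and 1258 were lower (9.84%). At least 2-fold differences were called for 526 higher (4.11%) and 431 lower (3.37%) genes, and the median log2 fold change of all genes was 0.01. An unadjusted p below 0.05 was found for 3899 genes. The 3 triacsin C values lay wholly above both SR-3420 values for 3169 genes (24.8% of those tested) and wholly below for 2996 (23.4%). Groups without overlap were thus common, also among genes not called. The groups overlapped for 1 called gene (Hspa1b). Both SR-3420 samples carry weight in these counts: without replicate 1 they were 489 higher and 732 lower, and 319 at least 2-fold higher, and without replicate 3 they were 637 and 888. Of the genes tested, 1511 overlap another gene on the genome, and since the study does not state whether reads were counted by strand, their counts can include reads of the neighbor.

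**Figure D1:**
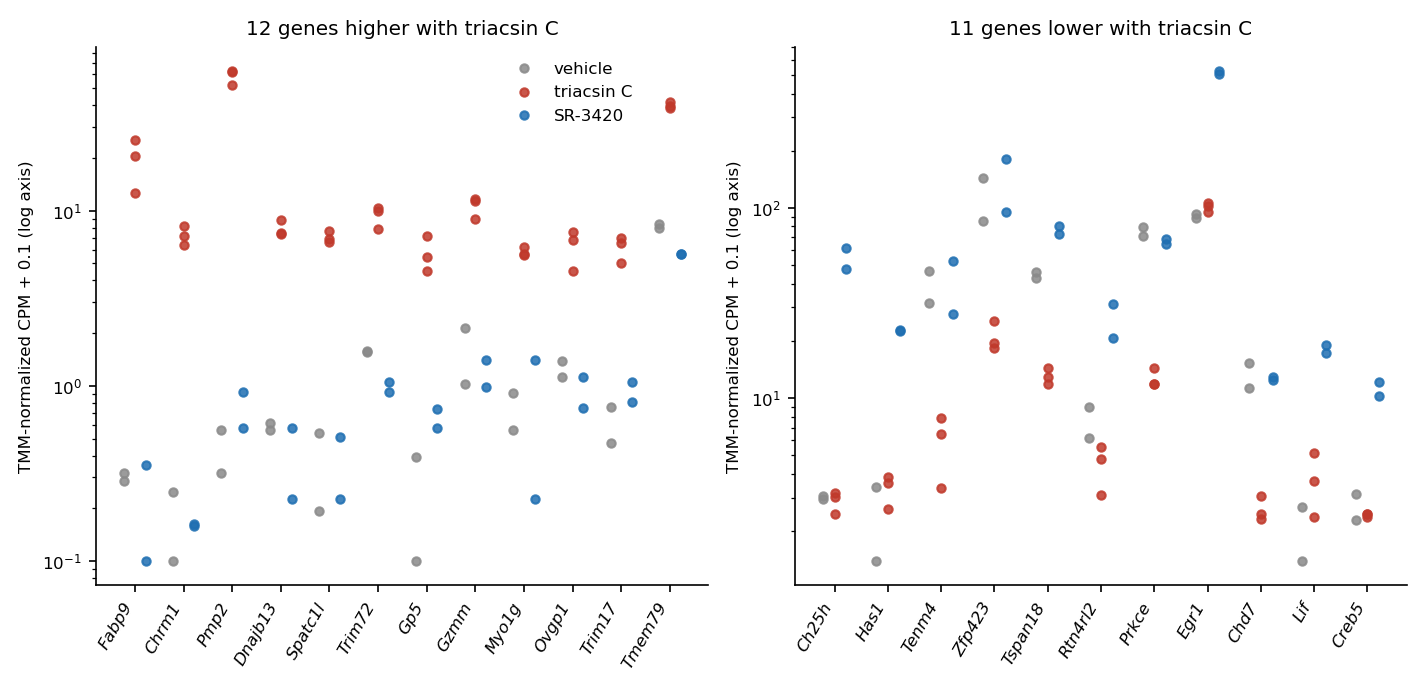
Level of leading genes in each direction, 12 higher and 11 lower with triacsin C, in TMM-normalized CPM with 0.1 added, on a log axis. Each point is 1 sample of the vehicle (grey), triacsin C (red) or SR-3420 (blue) group. The triacsin C points of Pmp2 lie at 52.4 to 62.2 CPM while all vehicle and SR-3420 points are under 1 CPM, and the SR-3420 points of Ch25h lie at 47.7 and 61.3 CPM while vehicle and triacsin C are near 3 CPM.

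Several genes with a large rise under triacsin C were close to silent in the other groups. Pmp2, which encodes a fatty acid binding protein of myelin, measured 62.2, 52.4 and 61.8 CPM with triacsin C, 0.472 and 0.825 CPM with SR-3420 and 0.219 and 0.461 CPM with vehicle. Its log2 fold change was 6.49 (SE 0.37, n = 3 and 2, edgeR adjusted p = 1.03e-06). Fabp9, another member of the fatty acid binding protein family, measured 25.2, 12.5 and 20.3 CPM with triacsin C, from 234, 183 and 268 counts, against 0 and 4 counts with SR-3420. Every triacsin C sample was thus far above every SR-3420 and vehicle sample for both genes. Gzmm, a protease gene of lymphocytes, measured 8.92, 11.3 and 11.6 CPM with triacsin C and 1.30 and 0.889 CPM with SR-3420 (log2 fold change 3.27, SE 0.34). Tmem79 measured 39.5, 38.5 and 41.7 CPM against 5.54 and 5.52 CPM, with vehicle at 7.82 and 8.30 CPM (log2 fold change 2.85, SE 0.19). The other leading genes of this direction were Chrm1, Dnajb13, Spatc1l, Trim72, Gp5, Myo1g, Ovgp1 and Trim17, with log2 fold changes from 2.87 to 6.68. Several of them are known from nerve, muscle, blood or germ cells rather than from fat, as Chrm1 (a muscarinic receptor), Trim72 (a muscle membrane repair protein) and Gp5 (a platelet glycoprotein). The call for Ovgp1 was lost without SR-3420 replicate 1 (adjusted p = 0.0847).

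Their position on the genome was examined after these values were seen. Fabp9 (chr3:10193624-10197283 on mm9) begins 7.06 kb beyond the end of Fabp4, an abundant fat cell gene at 8618 CPM on average with triacsin C, and Pmp2 (chr3:10179851-10183885) begins 9.74 kb beyond Fabp9, all on the same strand. Gzmm begins 0.622 kb beyond Cdc34, Gp5 1.64 kb beyond Atp13a3 and Ovgp1 4.04 kb beyond Wdr77. Of the 12 leading genes higher with triacsin C, 7 begin within 10 kb of the end of a tested gene on the same strand, and of the 12 lower ones 0 do. The share was 37.5% (197 of 526) for all genes at least 2-fold higher with triacsin C, 5.34% for those at least 2-fold lower and 19.1% for all genes tested. Short genes lie more densely, and among genes spanning under 10 kb the share was 32.1% for all tested and 45.4% for those at least 2-fold higher. Whether reads from the preceding gene add to these counts was not tested.

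The leading genes lower with triacsin C than with SR-3420 included some raised by SR-3420 and some lowered by triacsin C. Ch25h, whose enzyme makes 25-hydroxycholesterol, measured 2.90, 3.08 and 2.35 CPM with triacsin C, 61.3 and 47.7 CPM with SR-3420 and 2.85 and 2.95 CPM with vehicle. Its triacsin C values were those of vehicle, and the log2 fold change was -4.29 (SE 0.25, edgeR adjusted p = 1.03e-06). Egr1, a transcription factor induced within minutes by growth signals, measured 103, 106 and 94.96 CPM with triacsin C, 508 and 523 CPM with SR-3420 and 92.4 and 89.0 CPM with vehicle (log2 fold change -2.35, SE 0.15). Lif (-2.29), the hyaluronan synthase gene Has1 (-2.81) and the transcription factor gene Creb5 (-2.26) had the same arrangement, high with SR-3420 only. Rtn4rl2 was also higher with SR-3420 than with vehicle, at a log2 fold change of -2.56 for triacsin C against SR-3420.

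The second kind was low with triacsin C, while SR-3420 did not differ from vehicle by the test. Prkce, the gene of protein kinase C epsilon, measured 11.7, 11.8 and 14.3 CPM with triacsin C, 69.0 and 64.6 CPM with SR-3420 and 71.3 and 79.0 CPM with vehicle. All triacsin C values lay below all others, with a log2 fold change of -2.404 against SR-3420 (SE 0.15, edgeR adjusted p = 1.03e-06) and -2.57 against vehicle. Zfp423, a regulator of fat cell fate, measured 18.2, 25.2 and 19.4 CPM with triacsin C, 181 and 95.5 CPM with SR-3420 and 145 and 85.3 CPM with vehicle. Tenm4 (-2.78), Tspan18 (-2.57) and the chromatin remodeler gene Chd7 (-2.32) followed, each also lower with triacsin C than with vehicle. Tspan18 was higher with SR-3420, at 73.3 and 80.2 CPM, than with vehicle, at 45.9 and 43.0 CPM, but was not called (log2 fold change 0.79, edgeR adjusted p = 0.0822). These 5 genes span 490, 298, 698, 133 and 178 kb, in the order Prkce, Zfp423, Tenm4, Tspan18 and Chd7.

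**Figure D2:**
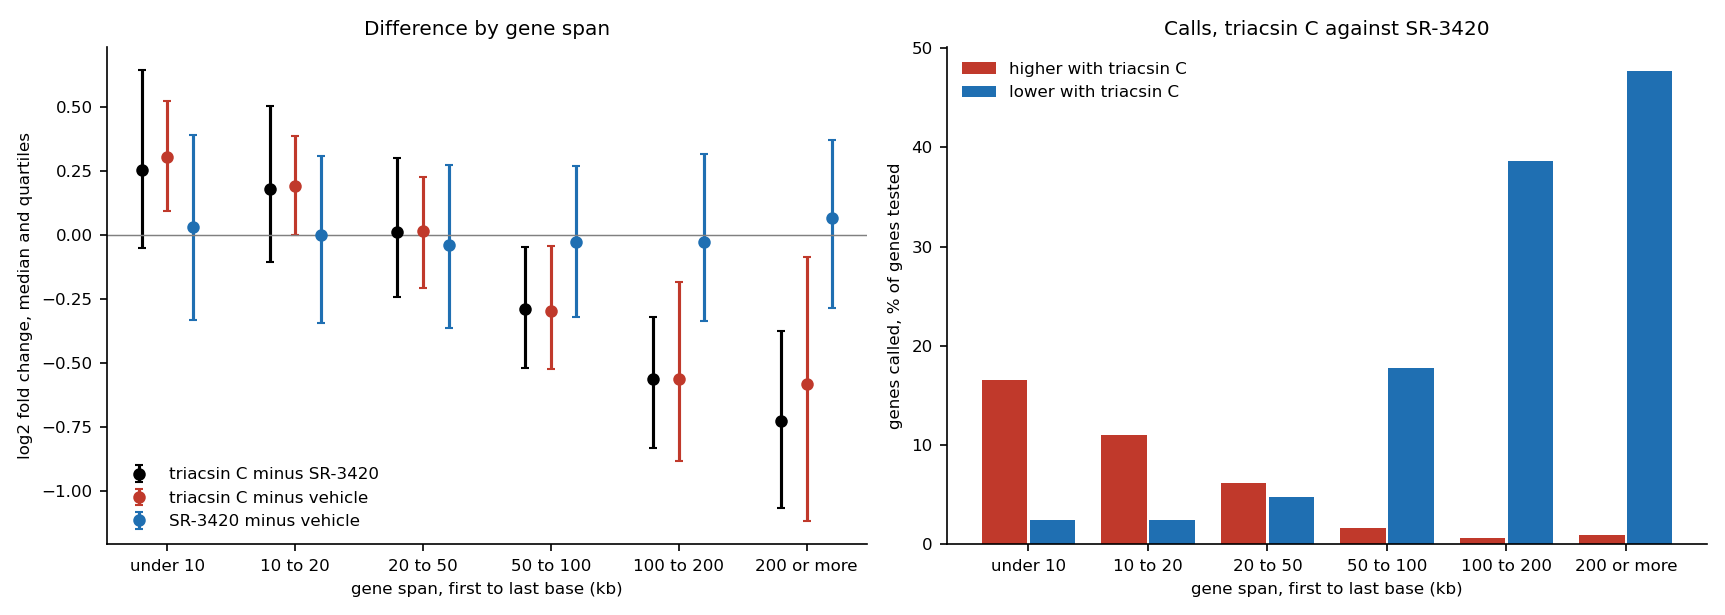
Difference and calls by gene span, the distance from first to last base on the genome in kb. On the left, points are medians and bars are quartiles of the log2 fold change over the genes of each span class for 3 comparisons; on the right, bars are the percentage of the genes tested that were called. The median for triacsin C minus SR-3420 runs from 0.25 under 10 kb to -0.73 at 200 kb or more, and the medians for SR-3420 minus vehicle stay between -0.04 and 0.07.

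Gene span ordered the whole comparison, a pattern noticed after seeing the data. Genes higher with triacsin C spanned a median of 9.77 kb, genes lower with triacsin C 101 kb and all genes tested 21.7 kb. Of 3441 genes under 10 kb, 16.5% were higher with triacsin C and 2.41% lower. Of 988 genes between 100 and 200 kb, 0.607% were higher and 38.7% lower, and of 532 genes of 200 kb or more, 0.940% were higher and 47.7% lower. Medians of the log2 fold change over the 6 span classes, from short to long, were 0.25, 0.18, 0.01, -0.29, -0.56 and -0.73. The same classes had medians of 0.31, 0.19, 0.02, -0.30, -0.56 and -0.58 for triacsin C against vehicle, which shares the triacsin C samples. For SR-3420 against vehicle, which shares the SR-3420 samples, they were 0.03, -0.00, -0.04, -0.03, -0.03 and 0.07. Thus the order by span was present in the values of triacsin C against vehicle and absent from those of SR-3420 against vehicle. With the trend over span removed by offsets, a setting added after seeing the data, 615 genes were higher and 771 lower, of which 977 were among the 2364 called without it. The authors counted reads per gene with the gene option of iRNA-seq, and the counted length in their table is far below the span (6254 bases for Prkce), but whether reads in introns entered is not spelled out. What lies behind the order by span was not tested.

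Against vehicle, triacsin C raised 610 genes (4.77%) and lowered 887 (6.94%), and SR-3420 raised 607 (4.75%) and lowered 357 (2.79%). Without vehicle replicate 3 these sums of 1497 and 964 genes were 702 and 306, without vehicle replicate 2 they were 840 and 342, and without SR-3420 replicate 1 or 3 the latter was 341 or 504. Of the 1106 genes higher with triacsin C than with SR-3420, 332 were raised by triacsin C, 194 were lowered by SR-3420 and 589 passed the test against vehicle in neither group. Of the 1258 lower genes, 586 were lowered by triacsin C, 342 were raised by SR-3420 and 340 were called in neither. The vehicle level lay between those of the compared groups for 76.3% of the higher and 49.1% of the lower genes, and for 35.3% of all genes tested. Called genes were selected for a gap between the groups, and a wider gap holds the vehicle level more easily. The share over all genes is therefore not a like reference. Opposite calls against vehicle were made for 9 genes raised by triacsin C and lowered by SR-3420 and for 10 genes with the reverse pattern.

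**Figure D3:**
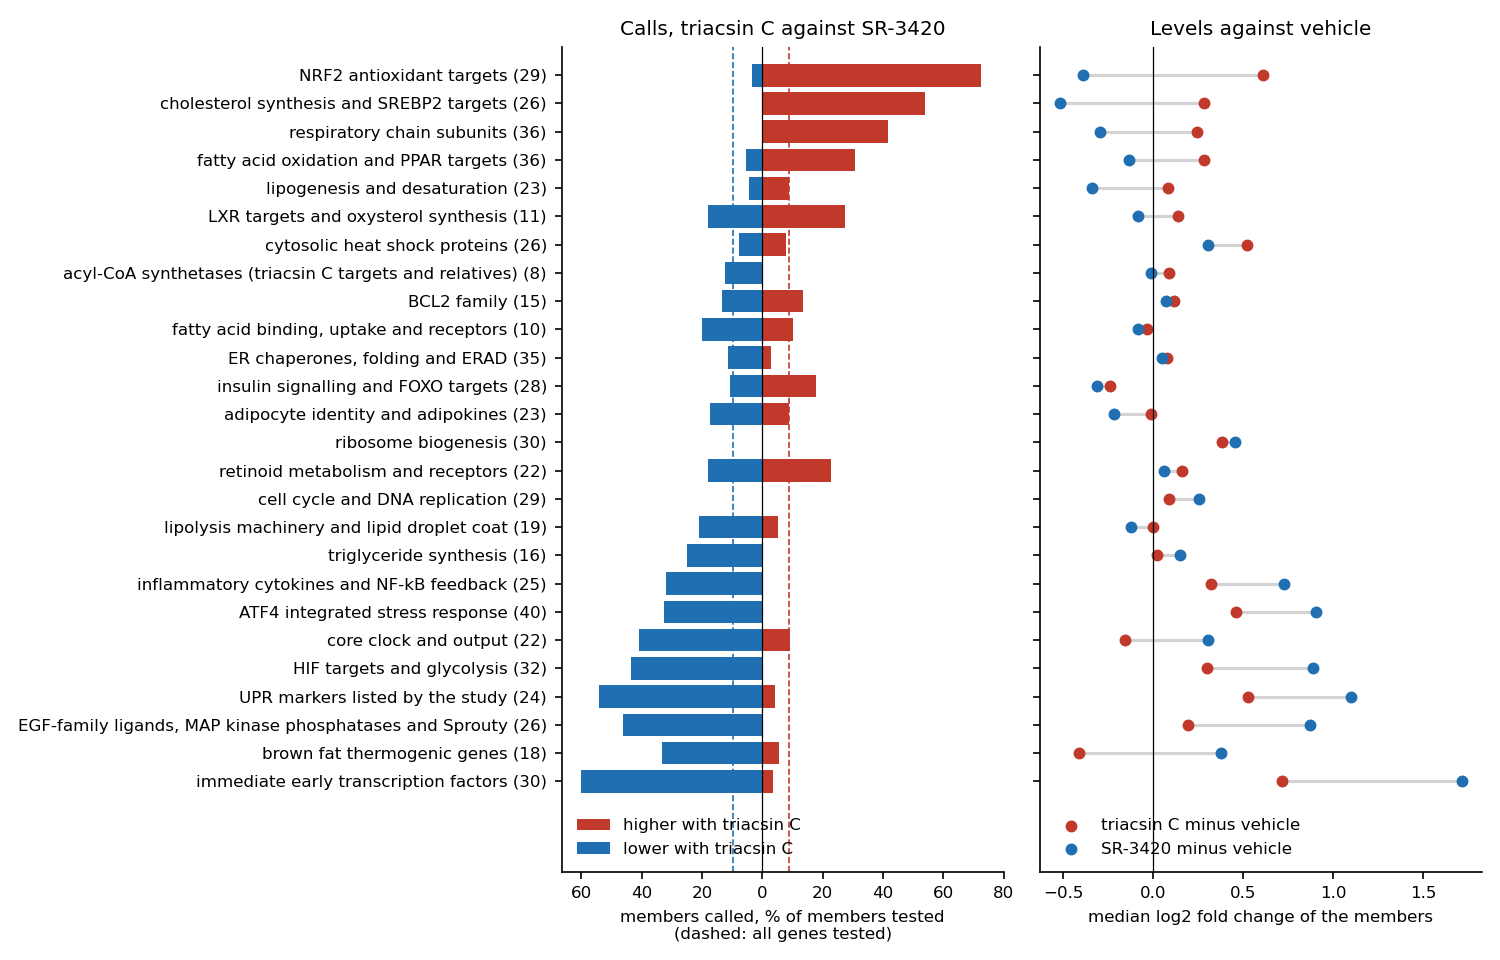
Gene lists, ordered by their median difference, with the number of members tested in parentheses. On the left, bars give the percentage of members called higher (red) or lower (blue) with triacsin C than with SR-3420, and dashed lines give the percentages over all genes tested, 8.65% and 9.84%. On the right, points are the median log2 fold changes of the members against vehicle; NRF2 targets lie at 0.61 with triacsin C and -0.39 with SR-3420, and immediate early genes at 0.72 and 1.71.

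Immediate early genes were the list that most favored SR-3420. They encode transcription factors switched on by signals without new protein synthesis, and 18 of 30 were lower with triacsin C, 1 was higher (Klf10) and the median log2 fold change was -0.92, against 0.01 for all genes. Egr2 measured 20.6, 26.4 and 20.9 CPM with triacsin C, 94.8 and 106 CPM with SR-3420 and 21.8 and 17.6 CPM with vehicle (log2 fold change -2.14, SE 0.17). Egr3 had a log2 fold change of -1.63, and Nr4a1 (-1.86) and Fos (-1.77), named here after their values were seen, were lower too. For the EGR genes triacsin C samples stood near vehicle, whereas Atf3, a stress-induced factor, rose with both compounds and further with SR-3420. Its levels were 77.1, 96.3 and 85.3 CPM with triacsin C, 163 and 190 CPM with SR-3420 and 14.5 and 13.6 CPM with vehicle. Jun and Jund were not called, at -0.79 and -0.43. Klf10 had log2 fold change 0.53 and adjusted p = 0.0496, and its call was lost on leaving out any 1 of the 5 samples. Immediate early genes are short, with a median span of 5.58 kb, while genes under 10 kb were more often called higher than lower with triacsin C. With the span offset, chosen after seeing the data, 22 immediate early genes were lower. The part of span in these values was not tested.

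Of 26 EGF-family ligands, MAP kinase phosphatases and Sprouty feedback genes, 12 were lower with triacsin C and 0 higher, with a median of -0.77. The ligand gene Hbegf measured 42.5, 55.2 and 46.2 CPM with triacsin C, 147 and 152 CPM with SR-3420 and 37.6 and 27.0 CPM with vehicle (log2 fold change -1.63, SE 0.17). Areg, a ligand of the same receptor, named here after its values were seen, measured 0.645, 0.547 and 0.455 CPM with triacsin C and 4.19 and 7.81 CPM with SR-3420 (log2 fold change -3.45, SE 0.51). Groups did not overlap for either ligand, as in this direction for 23.4% of all genes tested. The receptor feedback genes Spry2 (-1.72) and Spred2 (-1.09) were lower too. Of the abundant members, Dusp4 (-0.77) and Errfi1 (-0.77) did not pass. Inflammatory and NF-kB feedback genes had 8 of 25 lower and 0 higher, with a median of -0.35. Among them Tnfaip3 (-0.85), an inhibitor of NF-kB signalling, was called, and Csf1 (0.04) and Ccl2 (-0.53) were not. Leaving out SR-3420 replicate 1, SR-3420 replicate 3, triacsin C replicate 2 or triacsin C replicate 3 brought the inflammatory count to 5 each time.

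Some stress genes of the ATF4 pathway, which restores amino acid supply and folding capacity when translation is slowed, reached higher levels with SR-3420. Of 40 members 13 were lower with triacsin C and 0 higher, with a median of -0.46, and the medians against vehicle were 0.46 with triacsin C and 0.91 with SR-3420. The stress hormone gene Fgf21 measured 2.58, 2.80 and 3.26 CPM with triacsin C, 9.90 and 9.21 CPM with SR-3420 and 0.877 and 0.553 CPM with vehicle. Both groups were thus above vehicle, and the log2 fold change between them was -1.72 (SE 0.18). The amino acid transporter gene Slc7a1 (-1.31), the lipoprotein receptor gene Vldlr (-1.40), the death-linked factor gene Ddit3 (-1.41), which overlaps another gene, and the phosphatase subunit gene Ppp1r15a (-1.01) were also lower. Atf4 itself did not differ by the test, at 747, 681 and 752 CPM with triacsin C and 625 and 811 CPM with SR-3420 (log2 fold change 0.02, interval -0.26 to 0.29), and exceeded vehicle in both, at log2 fold changes of 0.67 and 0.65. The unfolded protein response markers listed by the study had 13 of 24 lower and 1 higher (Hspb8), with a median of -0.73, and since the study itself chose this list, it is not independent evidence of direction. Without SR-3420 replicate 1, and without triacsin C replicate 3, that count was 7.

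Chaperone genes showed less of a common direction. Of 35 ER chaperone, folding and ERAD genes, 4 were lower with triacsin C and 1 higher, with a median of -0.01 (0.09 without SR-3420 replicate 3). Hspa5, the main chaperone of the ER, measured 1214, 1352 and 1166 CPM with triacsin C, 2293 and 1582 CPM with SR-3420 and 893 and 836 CPM with vehicle (log2 fold change -0.64). Its call was lost without SR-3420 replicate 1 (adjusted p = 0.213) and without triacsin C replicate 3 (0.0518), and the count of 4 became 1 and 2. Atf6, an ER stress sensor gene that spans 163 kb, was lower at -1.25, below vehicle with triacsin C and above it with SR-3420. Cytosolic heat shock genes had 2 of 26 higher, 2 lower and a median of 0.11, which with the span offset were 1, 5 and -0.08. Hspb8, a small chaperone, measured 340, 313 and 359 CPM with triacsin C, 140 and 156 CPM with SR-3420 and 171 and 179 CPM with vehicle (log2 fold change 1.19, SE 0.13). Hspa1a, the inducible HSP70 gene, measured 8.17, 15.2 and 7.21 CPM against 59.5 and 24.3 CPM, a log2 fold change of -2.03. Its SR-3420 values were far apart, and without SR-3420 replicate 1 the call was lost (adjusted p = 0.142) and 0 heat shock genes were lower. Bag3 (0.43) was not called without SR-3420 replicate 1, SR-3420 replicate 3 or triacsin C replicate 1, which left 1 higher gene, and Hspa1b (-1.34) was not called without SR-3420 replicate 1, triacsin C replicate 1 or triacsin C replicate 3, either of the last leaving 1 lower gene.

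Antioxidant genes were the list that most favored triacsin C. Targets of NRF2, the factor that answers oxidative and electrophilic stress, had 21 of 29 higher with triacsin C and 1 lower, with a median log2 fold change of 0.89. Their medians against vehicle were 0.61 with triacsin C and -0.39 with SR-3420. Hmox1, which degrades heme, measured 2727, 2889 and 2743 CPM with triacsin C, 910 and 1107 CPM with SR-3420 and 248 and 229 CPM with vehicle (log2 fold change 1.47, SE 0.16). It rose with both compounds, more with triacsin C. Gstm1 measured 224, 266 and 262 CPM with triacsin C, 95.5 and 86.5 CPM with SR-3420 and 186 and 139 CPM with vehicle, so that triacsin C raised it and SR-3420 lowered it (log2 fold change 1.46, SE 0.18). Ephx1, an epoxide hydrolase gene, was higher at 1.00, and Nqo1, a quinone reductase gene named after its values were seen, at 1.86. The transporter gene Abcc4 was lower, at -0.63, and spans 224 kb. Among abundant members, the ferritin gene Fth1 (0.68) and Sqstm1 (-0.15) did not pass. Without SR-3420 replicate 3 the count of 21 was 13, and with the span offset it was 16.

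Promoters of 5 of these genes are printed because the genes were called and their windows hold a short motif of a regulator of stress or signal response. The windows are from RefSeq, build GRCm38.p6, 250 bases before to 50 bases after the start of the gene, written 5′ to 3′ on the strand of the gene. Capitals mark the motif: TGACGTCA (cAMP response element) in Ch25h and Areg, TGATGNAAT (C/EBP-ATF response element) in Fgf21 and TGACNNNGC (core of the antioxidant response element) in Gclm and Txnrd1, each searched on both strands. The antioxidant motif and the genes shown were chosen after the values were seen. Ch25h lies at chr19:34475099-34475398 on the minus strand, Areg at chr5:91139349-91139648 on the plus strand, Fgf21 at chr7:45615441-45615740 on the minus strand, Gclm at chr3:122245307-122245606 on the plus strand and Txnrd1, for 1 of its 3 windows, at chr10:82858956-82859255 on the plus strand.
Ch25h: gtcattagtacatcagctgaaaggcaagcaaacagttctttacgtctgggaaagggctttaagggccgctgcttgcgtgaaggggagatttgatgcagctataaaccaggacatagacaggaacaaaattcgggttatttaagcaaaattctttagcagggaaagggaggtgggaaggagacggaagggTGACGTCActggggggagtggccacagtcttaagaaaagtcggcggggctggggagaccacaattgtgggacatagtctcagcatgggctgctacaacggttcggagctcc
Areg: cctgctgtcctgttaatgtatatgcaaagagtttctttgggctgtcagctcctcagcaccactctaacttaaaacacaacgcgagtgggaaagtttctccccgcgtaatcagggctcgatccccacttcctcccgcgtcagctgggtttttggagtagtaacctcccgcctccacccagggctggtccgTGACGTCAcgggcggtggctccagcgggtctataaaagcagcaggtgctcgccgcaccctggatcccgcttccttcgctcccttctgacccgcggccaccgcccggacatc
Fgf21: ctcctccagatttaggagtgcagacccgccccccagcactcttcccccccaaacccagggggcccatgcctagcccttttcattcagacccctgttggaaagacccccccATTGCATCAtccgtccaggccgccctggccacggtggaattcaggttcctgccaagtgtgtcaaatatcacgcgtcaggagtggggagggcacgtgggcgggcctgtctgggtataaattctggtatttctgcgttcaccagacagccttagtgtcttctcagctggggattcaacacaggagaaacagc
Gclm: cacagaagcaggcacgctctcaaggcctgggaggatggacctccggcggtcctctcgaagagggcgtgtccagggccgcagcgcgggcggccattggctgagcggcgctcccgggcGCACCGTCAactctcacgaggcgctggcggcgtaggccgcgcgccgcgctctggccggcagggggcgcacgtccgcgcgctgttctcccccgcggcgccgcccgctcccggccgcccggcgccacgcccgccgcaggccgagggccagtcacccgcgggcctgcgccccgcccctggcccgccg
Txnrd1: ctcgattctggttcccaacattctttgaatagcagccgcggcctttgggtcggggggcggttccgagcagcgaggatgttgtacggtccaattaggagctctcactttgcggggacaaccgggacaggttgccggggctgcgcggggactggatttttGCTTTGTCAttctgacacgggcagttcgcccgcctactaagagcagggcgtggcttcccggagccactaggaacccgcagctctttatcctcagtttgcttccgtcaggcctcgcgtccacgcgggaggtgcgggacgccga

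Of all 32851 promoter windows, 1.79% held TGACGTCA, 0.965% held TGATGNAAT and 12.4% held TGACNNNGC. In the 12363 windows of genes tested the shares were 3.07%, 0.461% and 14.3%. TGACGTCA was found in 4 of 25 windows of the EGF-ligand, phosphatase and Sprouty list, in 2.86% of windows of genes higher with triacsin C and in 2.395% of those lower. This motif was also in 3 of 27 windows of respiratory chain genes, which favored triacsin C. TGATGNAAT was found in 5 of 37 windows of the ATF4 list, and TGACNNNGC in 12 of 33 windows of the NRF2 list, in 16.1% of windows of genes higher with triacsin C and in 14.6% of those lower. It was also in 10 of 33 windows of immediate early genes and 9 of 37 of the ATF4 list, which favored SR-3420, so it is not particular to the NRF2 list. Of the other motifs searched, TTCNNGAA (heat shock element) was in 6 of 29 windows of heat shock genes, TCACNCCAC (sterol response element) in 1 of 24 of cholesterol genes and AGGTCANAG (PPAR element) in 0 of 31 of oxidation genes, against 6.66%, 1.12% and 1.46% of windows of genes tested. The motif begins 61 bases before the start of the gene in both Ch25h and Areg. Gclm and Txnrd1 encode the regulatory subunit of glutathione synthesis and a thioredoxin reductase. Gclm measured 217, 201 and 238 CPM with triacsin C and 65.3 and 80.2 CPM with SR-3420, a log2 fold change of 1.59 that was not called without SR-3420 replicate 1 (adjusted p = 0.0564). Txnrd1 measured 805, 828 and 746 CPM against 513 and 464 CPM, a log2 fold change of 0.70, and it overlaps another gene. A match describes letters in a window and does not show that a factor binds there.

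Cholesterol synthesis was the lipid pathway most uniformly higher with triacsin C. Of 26 genes of the pathway and of its regulator SREBP2, 14 were higher and 0 lower, with a median of 0.81, and the medians against vehicle were 0.28 with triacsin C and -0.52 with SR-3420. Sqle, which makes squalene epoxide, measured 331, 320 and 318 CPM with triacsin C, 175 and 196 CPM with SR-3420 and 268 CPM in both vehicle samples (log2 fold change 0.80, SE 0.11). Fdps measured 105, 114 and 110.1 CPM with triacsin C and 54.4 and 62.3 CPM with SR-3420 (log2 fold change 0.91, SE 0.13), and Acat2 had a log2 fold change of 1.01. In each case the vehicle level lay between both groups and nearer to triacsin C. Insig1 (0.29) and Srebf2 (-0.12) did not pass. The count of 14 was 9 without SR-3420 replicate 1, 7 without SR-3420 replicate 3 and 9 with the span offset. LXR targets and oxysterol genes had 3 of 11 higher and 2 lower with a median of 0.25 (0.14 without SR-3420 replicate 3). Among them, Mylip, which marks the LDL receptor for degradation, was at 1.22 and the cholesterol exporter gene Abca1 at -0.96. With the span offset Abca1 was at -0.45 and was not called (edgeR adjusted p = 0.0560).

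Of 36 fatty acid oxidation genes and PPAR targets, 11 were higher with triacsin C and 2 lower, with a median of 0.52. Acadvl, which starts the oxidation of very long chains, measured 640, 718 and 684 CPM with triacsin C, 391 and 390 CPM with SR-3420 and 599 and 513 CPM with vehicle (log2 fold change 0.80, SE 0.13). Cpt2, of the carnitine shuttle, was higher at 0.84. The 2 lower genes, Pdk4 and Angptl4, are PPAR targets that restrain glucose oxidation and lipoprotein lipase, and both rose above vehicle with each compound. Pdk4 measured 237, 219 and 227 CPM with triacsin C, 544 and 426 CPM with SR-3420 and 102 CPM in both vehicle samples (log2 fold change -1.09, SE 0.18), and Angptl4 had a log2 fold change of -0.60. Hadha (0.35) was not called, and Acot4, a peroxisomal thioesterase gene, was higher at 1.15, with the call lost without SR-3420 replicate 3 (adjusted p = 0.0685). The count of 11 was 5 without SR-3420 replicate 1, SR-3420 replicate 3 or triacsin C replicate 3, 6 without triacsin C replicate 1 and 7 with the span offset.

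Respiratory chain subunits were higher with triacsin C for 15 of 36 genes and lower for 0, with a median of 0.58. Cox7a2 measured 172, 174 and 192 CPM with triacsin C, 97.2 and 112 CPM with SR-3420 and 140 and 128 CPM with vehicle (log2 fold change 0.78, SE 0.12), and Ndufa10, of complex I, had a log2 fold change of 0.73. Cox4i1 (0.31) and Atp5a1 (0.28) did not pass. These genes are short, with a median span of 7.21 kb. With the span offset the median was 0.31, 0 genes were lower and the count of 15 was 1. It was 5 without SR-3420 replicate 1 or 3, 8 without triacsin C replicate 2 and 3 with an offset for the length counted.

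Some droplet genes, Plin2 among them, were higher with SR-3420. Of 19 genes of lipolysis and the droplet coat, 4 were lower with triacsin C, 1 was higher and the median was -0.22, or 0.06 without SR-3420 replicate 1. Plin2, a coat protein of growing droplets, measured 665, 829 and 665 CPM with triacsin C, 2029.8 and 1513 CPM with SR-3420 and 493 and 331 CPM with vehicle (log2 fold change -1.30, SE 0.22). Hilpda, an inhibitor of ATGL, measured 22.9, 29.7 and 27.3 CPM against 90.1 and 72.2 CPM, with vehicle at 13.6 and 10.9 CPM (log2 fold change -1.60, SE 0.17). Both genes rose with each compound and more with SR-3420. Pnpla3 went the other way, at 276, 338 and 272 CPM with triacsin C, 106 and 79.0 CPM with SR-3420 and 257 and 209 CPM with vehicle (log2 fold change 1.68, SE 0.22), and only SR-3420 moved it from vehicle. Mgll, the monoglyceride lipase gene, was lower at -0.87 and spans 104 kb, and with the span offset it was not called (adjusted p = 0.224). Pnpla2, which encodes ATGL, had a log2 fold change of 0.16 and Plin4 one of -0.39, neither called.

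Among genes of proteins on which the compounds act, Acsl1 was called. Of 8 acyl-CoA synthetase genes tested, 1 was lower with triacsin C and 0 higher, with a median of 0.08 that was -0.14 without SR-3420 replicate 3. Acsl1, the main form in fat cells, measured 672, 606 and 684 CPM with triacsin C, 1111 and 1324 CPM with SR-3420 and 1120 and 1219 CPM with vehicle (log2 fold change -0.90, SE 0.23), and it was also below vehicle, at -0.84. Its call was lost without SR-3420 replicate 3 (adjusted p = 0.106) and without triacsin C replicate 2 (0.0528). Acsl3 had a log2 fold change of 1.104 that was not called (adjusted p = 0.101), Acsl4 one of -0.33 and Acsl5 one of 0.36, while Acsl6 was not tested, with 0, 4 and 6 counts with triacsin C and 7 and 1 with SR-3420. Slc27a1 (0.18) and Slc27a4 (-0.02) were not called. Abhd5, the target of SR-3420, had a log2 fold change of 0.33 (interval -0.14 to 0.81).

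Triglyceride synthesis had 4 of 16 lower, 0 higher and a median of -0.27 (-0.05 without SR-3420 replicate 1), including Pck1, which supplies the glycerol backbone, at -1.07. The call for Pck1 was lost without SR-3420 replicate 1 (adjusted p = 0.117) or triacsin C replicate 3 (0.0568), and the list's count was 0 and 1 in these settings and 2 without triacsin C replicate 1 or 2. Gpd1 (0.40), Agpat2 (-0.33) and Dgat1 (0.28) did not pass. Lipogenesis and desaturation had 2 of 23 higher, 1 lower and a median of 0.37, with Scd2 at 1.15 (lost without SR-3420 replicate 1, adjusted p = 0.0626, when 0 were higher), Acaca, which spans 206 kb, at -0.69 (-0.025 with the span offset, adjusted p = 0.954), and Scd1 (0.64) and Fasn (0.10) not called. The list of fatty acid binding, uptake and receptor genes does not hold Pmp2 and Fabp9, which were both called higher. It had 1 of 10 higher and 2 lower with a median of 0.02. The median was -0.25 without SR-3420 replicate 3 and -0.30 with the span offset. Of these, the receptor gene Ffar2 was lower at -1.20, Ffar4 was not called at -0.72, and the call for Fabp4 (0.85) was lost on leaving out any 1 of the 5 samples. The 2 lower genes were 1 without SR-3420 replicate 1 or 3 or triacsin C replicate 2 or 3.

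Of 32 glycolytic and hypoxia-inducible genes 14 were lower with triacsin C and 0 higher, with a median of -0.56. Hk2, a hexokinase gene, measured 146, 196 and 158 CPM with triacsin C, 646 and 454 CPM with SR-3420 and 232 and 174 CPM with vehicle (log2 fold change -1.72, SE 0.20). Its triacsin C values lay at the level of vehicle and its SR-3420 values well above. The oxygen sensor gene Egln1 (-1.48) and Ndrg1 (-1.18) were lower, and among the most abundant members Aldoa (-0.03) and Pkm (-0.53) were not called.

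Several regulators of brown fat were lower with triacsin C. Of 18 thermogenic genes tested 6 were lower and 1 was higher, with a median of -0.80 that was -0.42 without SR-3420 replicate 1. The coactivator gene Ppargc1b measured 31.2, 35.1 and 26.2 CPM with triacsin C, 160.4 and 113 CPM with SR-3420 and 74.1 and 56.6 CPM with vehicle (log2 fold change -2.15, SE 0.29). Prdm16, which directs brown fat fate, measured 8.28, 9.44 and 5.99 CPM with triacsin C, 37.1 and 29.4 CPM with SR-3420 and 40.1 and 29.5 CPM with vehicle (log2 fold change -2.07, SE 0.29). Ppara was lower at -1.27 and Ppargc1a at -1.24. The genes named span 102, 321, 71.3 and 99.7 kb, and with the span offset 5 of the 18 were lower. Cox8b, a cytochrome oxidase subunit gene of 1.505 kb, was the 1 higher gene, at 1.38. Adrb3 (-0.81), Kcnk3 (-1.21), Ucp1 (-0.25) and Elovl3 (0.01) were not called.

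Adipocyte identity genes had 2 of 23 higher and 4 lower, with a median of -0.14, or 0.10 without SR-3420 replicate 1. Pparg, the master regulator of fat cells, measured 114, 117 and 122 CPM with triacsin C, 168 and 205 CPM with SR-3420 and 309 and 349 CPM with vehicle, so that both compounds lowered it and triacsin C more (log2 fold change -0.67). The call for Pparg was lost without SR-3420 replicate 3 (adjusted p = 0.185) and without any 1 of the triacsin C samples, and with the span offset its log2 fold change was -0.15 (adjusted p = 0.614). The list's count of 4 lower was 1 or 2 on leaving out SR-3420 replicate 1 or 3 or triacsin C replicate 1 or 3. Retn, a fat cell hormone gene, was higher at 1.04 and alone in this when any 1 sample was left out, and Rbp4 (-0.14) and Cfd (0.55) were not called. Insulin signalling and FOXO genes had 5 of 28 higher and 3 lower, with a median of -0.06 (0.03 without SR-3420 replicate 1). The insulin receptor gene Insr, of 129 kb, measured 85.6, 87.2 and 80.3 CPM with triacsin C, 252 and 203 CPM with SR-3420 and 298 and 301 CPM with vehicle (log2 fold change -1.43, SE 0.16). Arrdc4 was higher at 1.22, and Txnip, a relative of it, was not called at -0.07. Leaving out SR-3420 replicate 1 or 3 or triacsin C replicate 1 or 3 brought the 5 higher genes to 3, and SR-3420 replicate 1 or triacsin C replicate 3 brought the 3 lower genes to 1.

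Called clock genes were more often lower than higher with triacsin C. Of 22 members 9 were lower and 2 higher, with a median of -0.53, and without SR-3420 replicate 3 these became 5 and 1. Cry1, a repressor of the clock, measured 59.2, 69.1 and 58.8 CPM with triacsin C, 123 and 104 CPM with SR-3420 and 73.3 and 65.0 CPM with vehicle (log2 fold change -0.86, SE 0.13). Npas2 (-2.89) and Arntl (-1.02), which drive the cycle, span 169 and 107 kb and were lower with triacsin C than with vehicle. Arntl was not called without SR-3420 replicate 3 (adjusted p = 0.0548). Tef was higher at 0.60, and Nr1d1 (-0.73) and Csnk1d (0.00) were not called. Retinoid genes had 5 of 22 higher and 4 lower, with a median of -0.14, among them Cyp26b1, which degrades retinoic acid, at -1.43 and Rdh10, which helps make it, at 0.62. Leaving out SR-3420 replicate 1 brought these counts to 3 and 2, SR-3420 replicate 3 brought the first to 3 and triacsin C replicate 3 the second to 2.

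The BCL2 family had 2 of 15 higher, 2 lower and a median of 0.07 (0 lower and -0.19 with the span offset), with the death-promoting genes Bcl2l11 at 0.89 and Bmf at 1.31, and Mcl1 (0.14) and Bax (0.10) not called. Bmf measured 4.52, 5.20 and 4.93 CPM with triacsin C, 2.71 and 1.21 CPM with SR-3420 and 23.0 and 19.9 CPM with vehicle, so that both compounds lowered it. Without SR-3420 replicate 3 the call for Bmf was lost (adjusted p = 0.0695), and the lower members Bcl2 and Bcl2l1 were not called without SR-3420 replicate 1 or 3 or triacsin C replicate 2 or 3. Of 30 ribosome biogenesis genes 0 were called by edgeR, with a median of -0.14 (-0.034 without SR-3420 replicate 3), against medians of 0.39 and 0.46 for triacsin C and SR-3420 against vehicle. Of 29 cell cycle and DNA replication genes 0 were called, with a median of -0.15. The DESeq2 Wald test called 1 ribosome biogenesis gene and 0 cell cycle genes, and with the span offset 2 and 7 were lower.

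**Figure D4:**
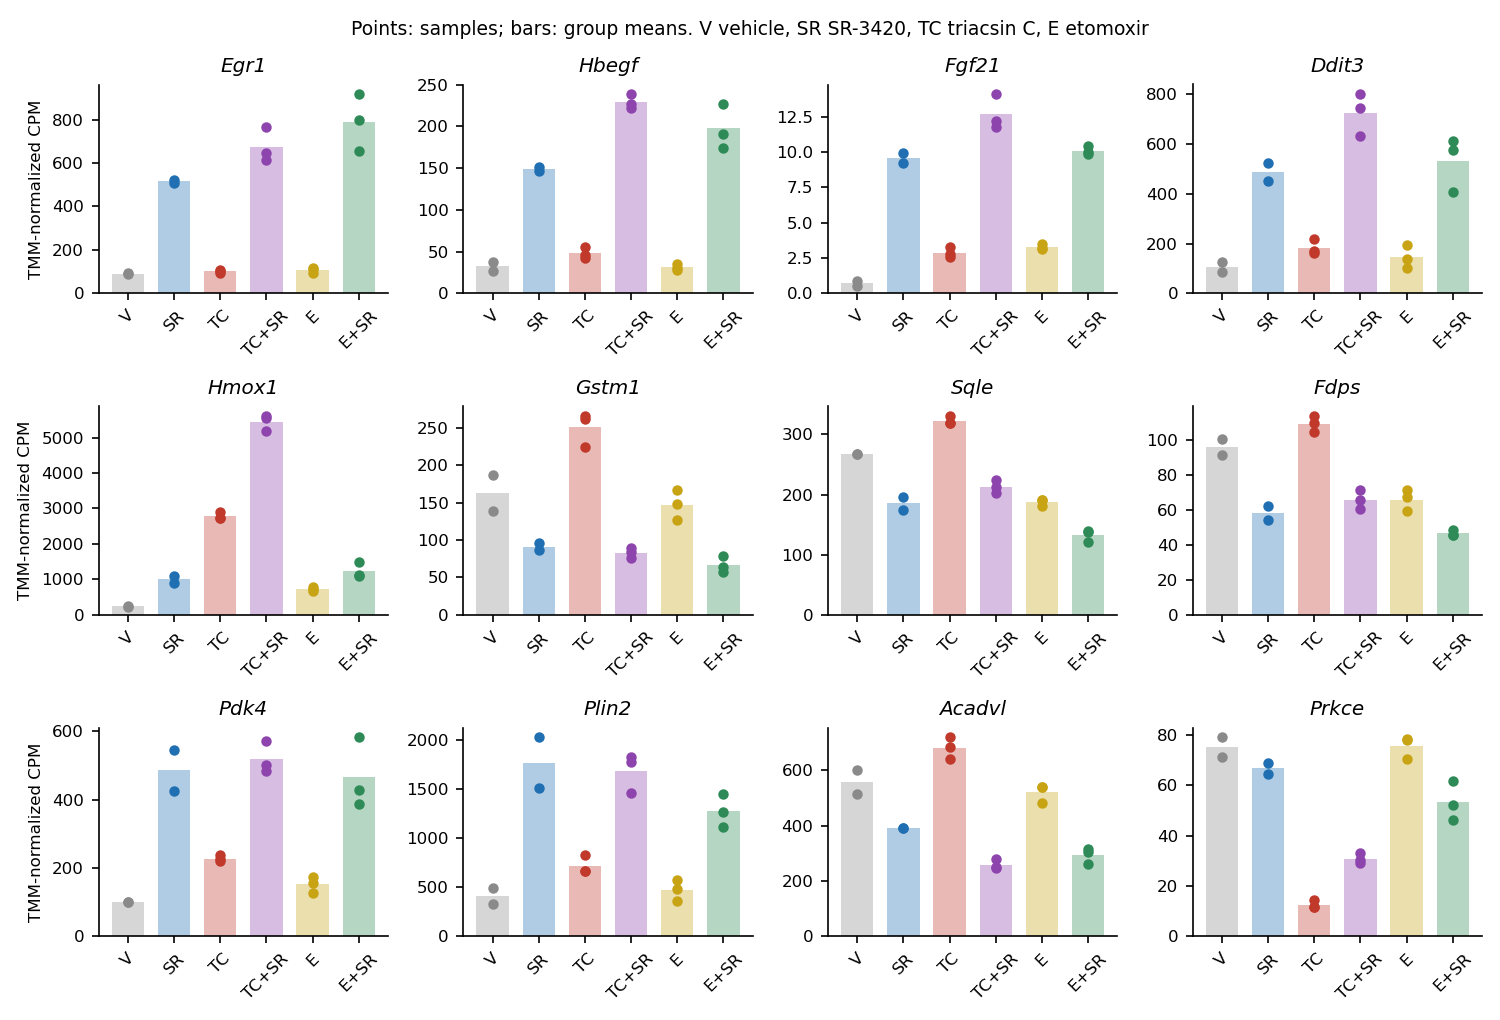
Level of 12 genes in TMM-normalized CPM in all 6 groups, on linear axes that start at 0. Points are samples and bars are group means for vehicle (V), SR-3420 (SR), triacsin C (TC), etomoxir (E) and their combinations. Egr1 lies at 94.96 to 106 CPM with triacsin C and at 508 and 523 CPM with SR-3420, and Gstm1 has the reverse order, at 224 to 266 and at 86.5 and 95.5 CPM.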

How the data were processed

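RNA-seq counts were taken as the authors deposited them: raw read counts per gene for 20295 genes in 16 samples, aligned by the authors with STAR 2.4.2a to mm9, reduced with HOMER to 1 read per position and read length, and counted with iRNA-seq. Removing reads at a shared position can limit the counts of short, abundant genes, and whether it did so in the deposited counts was not tested. Groups were taken from the labels. With edgeR 4.0.16 in R 4.3.3, genes were kept by filterByExpr (minimum count 10), scaled by TMM and tested with the quasi-likelihood test in 1 model with 6 group means, with Benjamini-Hochberg adjustment across 12786 genes. Named genes were the 12 with the largest log2 fold change in each direction (groups not overlapping, mean count at least 50, no overlapping gene), genes the study names, leading members of each list, and the targets of the compounds; some are not reported here. Members and lists were chosen with earlier results of these data known. Intervals are 95%. Alternatives were DESeq2 1.42.0 size factors and Wald test, other filters, only the compared groups, the replicate block, length and span offsets (splines with 5 degrees of freedom), no overlapping genes, and leaving out each sample. Python 3.11.15 with matplotlib 3.10.9 served for lists, promoters and figures.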

Additional observations from a re-analysis of the deposited data

How the results depend on the processing

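Of 118 called named genes, 76 were called in every setting. The direction of 1 turned: the log2 fold change of Abcc4 was 0.057 with the span offset (adjusted p = 0.849) and 0.021 with the span offset and replicate block (adjusted p = 0.919). Counts follow in the order higher with triacsin C, lower, at least 2-fold higher, at least 2-fold lower, changed against vehicle by triacsin C, and by SR-3420. Leaving out 1 sample gave 489 to 854, 732 to 977, 319 to 454, 334 to 454, 702 to 1089 and 306 to 504; an arm left with 1 sample was assumed to vary like the others. The span offset, chosen after seeing the data, gave 615, 771, 317 and 226, and 798 for triacsin C against vehicle. Replicate numbers 1 and 3 are shared by both groups. With them as a replicate block, 2157 were higher, 2273 lower, 3072 changed with triacsin C and 2438 with SR-3420. The block called 19 further named genes and 25 higher respiratory chain genes. It called 1 higher and 5 lower ribosome biogenesis genes and 1 higher and 3 lower cell cycle genes. Higher and lower counts with the block were 19 and 3 for oxidation, 21 and 0 for cholesterol and 8 and 2 for lipogenesis genes. They were 1 and 23 for ATF4, 0 and 21 for glycolytic and 1 and 10 for thermogenic genes. Residuals of same-numbered samples correlated at 0.41 on average over 35 pairs of all groups (27 over 0.1), others at -0.20. Residuals sum to 0 within a group, so the pairs are not separate and a lower mean of the others is partly fixed in advance. In groups of 2 samples they mirror each other: vehicle replicate 2 gave 0.643 with SR-3420 replicate 1 and -0.643 with SR-3420 replicate 3. Triacsin C replicate 1 departed from its number (-0.26 with SR-3420 replicate 1), while those numbered 3 gave 0.49. Replicate 2 of etomoxir with SR-3420 departed too (-0.24 with triacsin C replicate 2). Triacsin C replicate 2 gave 0.60 with SR-3420 replicate 1, which has another number, and by the mirror -0.60 with SR-3420 replicate 3. As not every pair correlated, the fit without the block was kept. Most same-numbered pairs did correlate, so the main counts leave out a pairing that may be real. The replicate block gave 1793, 2424, 2686 and 2622 with the length offset. It gave 2220 lower genes and 2712 for SR-3420 against vehicle with the span offset, and 2596, 2688 and 4544 (triacsin C against vehicle) without triacsin C replicate 1, both chosen after seeing the data. At least 10 counts in every sample left 328 at least 2-fold higher genes. For SR-3420 against vehicle the DESeq2 Wald test gave 1569 genes and a model of only the 2 groups, which has fewer samples, 46. Causes of the other shifts were not tested. Depth limits genes with few counts, such as Acsl6.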

Other observations

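Several leading genes of triacsin C alone were far below that level in the samples that received triacsin C together with SR-3420. The means of those 3 samples, with vehicle in parentheses, were 1.30 (0.340) CPM for Pmp2, 0.583 (0.202) CPM for Fabp9, 1.75 (1.48) CPM for Gzmm and 6.06 (8.06) CPM for Tmem79. Hmox1 stood at 5452 CPM in them, above its level with either compound alone, and Prkce at 30.9 CPM, between its levels with triacsin C and with vehicle. Egr1 stood at 676 CPM and Ch25h at 71.0 CPM in these samples. Ffar4 stood at 14.3 CPM in them on average and at 119 CPM with SR-3420 alone. Summed adipocyte markers were 12022, 11102 and 9649 CPM in these samples, against 31708, 41369 and 31573 CPM with triacsin C alone. Preadipocyte and fibroblast markers summed to 4599, 3861 and 3075 CPM, against 2631, 2313 and 2002 CPM. The part of these markers was not tested. Sample labels were taken as given.

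In samples that share none of the 5 compared, SR-3420 added to etomoxir gave a median log2 fold change of -0.57 against etomoxir over the 1106 genes higher with triacsin C alone, with 14.2% of them above 0. Over the 1258 lower genes the median was 0.25 with 67.9% above 0, and over all genes tested 0.01 with 50.8%. Triacsin C with SR-3420 against etomoxir with SR-3420 gave medians of 0.02 and -0.06 over the same genes. Cell type markers moved as well when SR-3420 was added to etomoxir. Their medians were -0.89 for adipocyte and 0.76 for preadipocyte and fibroblast markers, and their part in the shifts above was not tested.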
